A study of Homo sapiens with 6 samples.

Results

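The genes described here are 10 cadherins and catenins chosen by symbol, called members below. The cadherins are CDH1, CDH2, CDH3, CDH11, CDH13 and CDH19, and the catenins are CTNNA1, CTNNB1, CTNND1 and JUP. All 10 are among the 23368 genes counted. They were measured by RNA sequencing in 1205Lu cells, an established human line of metastatic melanoma. The cells were transiently transfected with the plasmid pCMV6-SOX10, which makes the neural crest transcription factor SOX10, or with the pCMV6 control plasmid, with 7.8 µg of plasmid per flask in both groups, and were harvested 24 h later. Each group has 3 biological replicates, and the design asks how SOX10 acts on gene expression. The labels do not state what share of cells took up plasmid, and with bulk RNA fewer cells expressing a gene and less RNA per cell cannot be told apart.

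Classical cadherins are membrane proteins that bind the same cadherin on a neighbouring cell and hold cells together in the presence of calcium. Their cytoplasmic tails bind catenins: beta-catenin or plakoglobin, which recruit alpha-catenin and through it the actin skeleton, and p120-catenin, which keeps the cadherin at the membrane. Beta-catenin also carries Wnt signals into the nucleus. Normal melanocytes attach to keratinocytes through E-cadherin, and melanomas often lose E-cadherin and gain N-cadherin, a change known as the cadherin switch.

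Assigned reads ranged from 2544420 to 4167393 in the SOX10 libraries and from 867917 to 2066520 in the control libraries, so every SOX10 library was deeper than every control. Levels are in CPM, counts scaled to the assigned reads of each library and then between libraries by TMM. A single read was worth 0.24 to 1.15 CPM before that scaling. SOX10 itself stood at 18.6 to 34.3 CPM in the SOX10 libraries and 16.4 to 21.3 CPM in the controls, so its reads did not separate the groups and did not check the labels. SOX10 replicate 1 and control replicate 3 had 93.5 and 97.0 reads outside genes per 100 assigned reads, against 121 to 135 in the other libraries. Of the 10 markers of melanoma and neural crest cells, 6 had enough reads for a test, and all 10 together summed to 1203 to 1380 CPM in the SOX10 libraries and 1199 to 1350 CPM in the controls. GPR143 had no read and the pigment cell genes MLANA, TYR and PMEL had 4, 9 and 19 reads in all. Markers of keratinocytes summed to 7.43 to 17.5 CPM and 10.96 to 13.7 CPM in these groups. Those of endothelium summed to 34.8 to 51.4 and 36.2 to 42.3 CPM, and those of leukocytes to 7.68 to 9.09 and 4.83 to 7.67 CPM. Single genes held most of the first 2 sums. Among keratinocyte markers KRT10 had 119 reads, KRT14 20 and KRT5 6. Among endothelial markers EGFL7 had 365, KDR 101, VWF 57 and PECAM1 3. Fibroblast markers summed to 105 to 176 CPM with SOX10 and 118 to 160 CPM without, of which PDGFRA had 1817 reads, COL1A1 42 and LUM none.

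Of the 6 chosen cadherins, the transcripts of N-cadherin and T-cadherin made up nearly all, with almost none of E-cadherin. This was alike in kind in all 6 libraries, and cadherins outside these 6 were not part of the comparison. Among the catenins, alpha-catenin (CTNNA1) and beta-catenin (CTNNB1) were abundant, and plakoglobin (JUP) was close to 0. Of the 10 members 5 had enough reads for a test, and by edgeR none passed it at an adjusted p under 0.05, as against 12 genes, or 0.112%, of all those tested. CDH2 (N-cadherin) came nearest, at 223 ± 14.8 CPM with SOX10 and 171 ± 9.17 CPM in the controls (SD, n = 3 each).

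**Figure D1:**
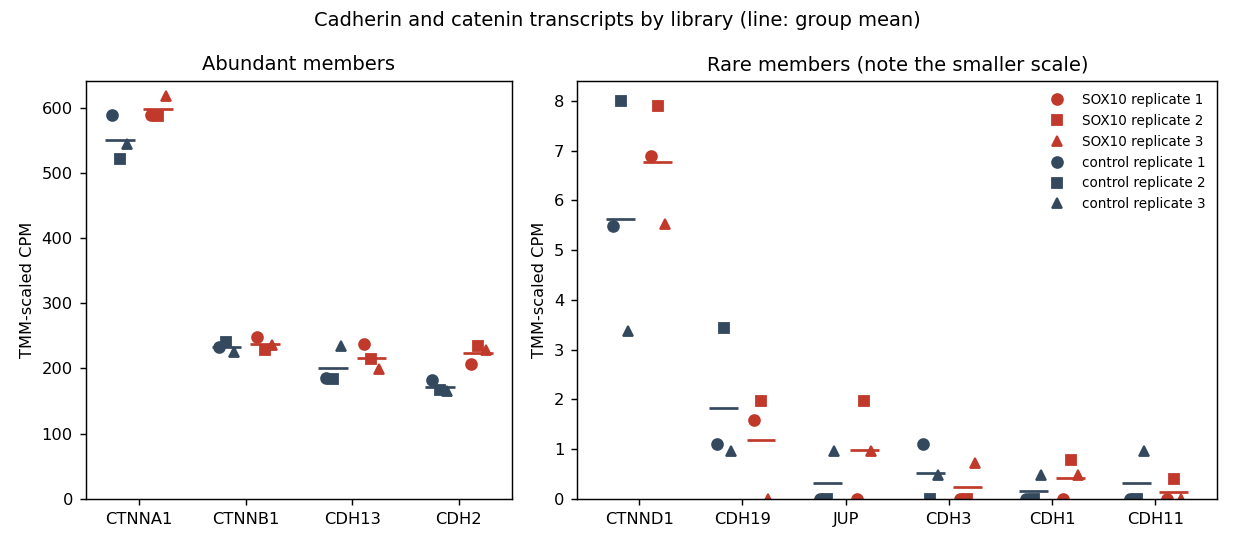
Levels of the 10 cadherin and catenin transcripts in TMM-scaled CPM, on linear axes. The 4 abundant members are on the left and the 6 with few reads on the right, on a smaller scale. The level of CTNND1 is uncertain, since whether its reads were lost as ambiguous was not tested. Each point is a library, the shape gives the replicate number and the line the group mean. Only for CDH2 do the 3 SOX10 points, from 207 to 235 CPM, all lie above the 3 control points, from 165 to 182 CPM.

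To show the DNA before the start sites of 2 of the cadherins, the 250 bases upstream are printed from RefSeq on GRCh38.p14. CDH2 was chosen because it is the only member whose groups did not overlap, and CDH19 because it is the cadherin of glial cells of the neural crest, where SOX10 is normally active. The RefSeq table matched 5 of the 10 members, namely CDH2, CDH19, CTNNA1, CTNNB1 and JUP. The CDH2 window is chr18:28177131-28177380 and the CDH19 window chr18:66604091-66604340, both on the minus strand and written 5′ to 3′ toward the start site. Capitals mark the core sequence of SOX factors, searched as ACAAAG or ACAATG on both strands.
CDH2: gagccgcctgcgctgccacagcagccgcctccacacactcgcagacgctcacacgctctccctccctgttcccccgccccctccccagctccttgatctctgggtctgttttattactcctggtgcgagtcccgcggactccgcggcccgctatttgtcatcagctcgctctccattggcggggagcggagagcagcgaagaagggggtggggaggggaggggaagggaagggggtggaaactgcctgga
CDH19: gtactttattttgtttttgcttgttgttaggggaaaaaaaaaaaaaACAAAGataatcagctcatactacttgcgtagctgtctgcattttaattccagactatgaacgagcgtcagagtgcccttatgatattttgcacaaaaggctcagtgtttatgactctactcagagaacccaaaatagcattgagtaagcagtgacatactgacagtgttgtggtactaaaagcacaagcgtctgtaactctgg
The CDH19 window holds 1 match, ACAAAG, whose first base lies at -204 from the start site, and the CDH2 window holds none. Neither does the other CDH2 window in the table, nor any window of CTNNA1, CTNNB1 or JUP, so 1 of the 10 windows of these 5 members has a match. Over all 35116 windows in the table the share with a match is 21.2%. The base composition differs between the 2 windows shown, with 66.0% G and C and 17 CpG in CDH2 against 38.0% and 4 in CDH19. A match is a run of letters, and these data do not measure binding.

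CDH2 encodes N-cadherin, the cadherin of neural cells, fibroblasts and many melanomas. It stood at 207, 235 and 228 CPM in SOX10 replicates 1, 2 and 3 and at 182, 167 and 165 CPM in control replicates 1, 2 and 3. Every SOX10 library was above every control library. This rested on 779, 595 and 950 reads against 166, 146 and 342. For CDH2 this gave a log2 fold change of 0.39 (SE 0.11) and a 95% confidence interval of the fold from 1.11 to 1.53. By the edgeR quasi-likelihood test the unadjusted p was 0.00228, the rank 71 of 10678 tested genes, and the p adjusted over all of them 0.333, so CDH2 did not pass the threshold of 0.05. A rise above 1.53-fold lay outside the interval. For the whole table, 665 genes, or 6.23%, were under 0.05 before adjustment, 2.71% as higher and 3.52% as lower, and in 1255, or 11.8%, the groups did not overlap.

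The difference in CDH2 kept its direction and an unadjusted p under 0.05 in each of 17 other settings, and passed the adjusted threshold in none of them. Its log2 fold change ran from 0.35 to 0.44 over these settings. The adjusted p ran from 0.0669, with reads outside genes as a covariate, a setting chosen after seeing the data, to 0.827. Relative to the CTNNA1 reads of the same library, a ratio that needs no scaling between libraries, CDH2 stood at 0.351, 0.400 and 0.369 in the SOX10 libraries and at 0.309, 0.320 and 0.304 in the controls. By this ratio the groups did not overlap. Relative to CDH13 reads they did, with CDH2 at 0.868, 1.10 and 1.15 in SOX10 replicates 1, 2 and 3 and at 0.982, 0.907 and 0.705 in control replicates 1, 2 and 3, so that SOX10 replicate 1 lay below control replicates 1 and 2.

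CDH13 encodes T-cadherin, which is tied to the membrane by a lipid anchor and, having no cytoplasmic tail, binds no catenins. It stood at 238, 214 and 198 CPM in SOX10 replicates 1, 2 and 3 and at 185, 184 and 234 CPM in control replicates 1, 2 and 3. The groups overlapped. The highest library of each group was the one with the fewest reads outside genes relative to assigned reads, SOX10 replicate 1 and control replicate 3. Whether that ratio has a part in the CDH13 level was not tested. For CDH13 edgeR gave a log2 fold change of 0.090 (SE 0.12) and 0.943 as the adjusted p, and the fold lay between 0.895 and 1.27 at 95% confidence. That log2 fold change was 0.013 without SOX10 replicate 1, 0.23 without control replicate 3 and 0.15 without both.

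**Figure D2:**
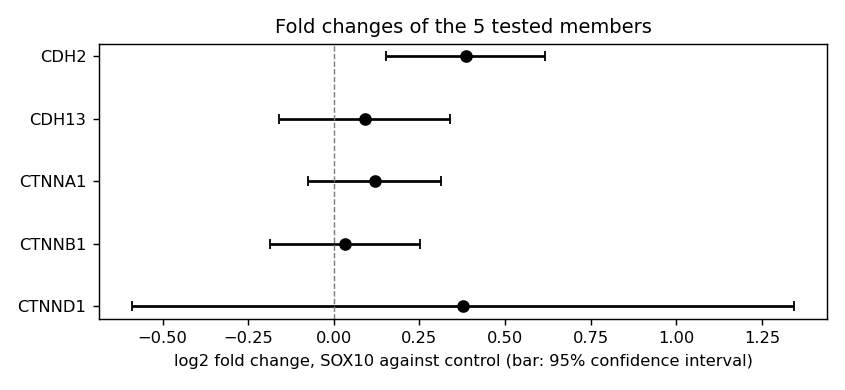
Log2 fold change of SOX10 against control for the 5 members with enough reads, with 95% confidence intervals from the edgeR fit over all 6 libraries. The interval of CDH2 lies above 0 before adjustment for the number of genes, those of CDH13, CTNNA1 and CTNNB1 span 0 narrowly, and that of CTNND1 is the widest.

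CDH1, the epithelial cadherin, was close to absent. It had 0, 2 and 2 reads with SOX10 and 0, 0 and 1 without. Pooled within groups this was 0.383 CPM (exact 95% binomial interval 0.104 to 0.981) against 0.259 CPM (0.0066 to 1.44), and such intervals cover counting error only. The intervals overlap almost wholly, so no difference in CDH1 was detectable at this depth. Where no read was counted, up to 3 reads remain possible, which is 0.804 CPM in SOX10 replicate 1 and 3.24 and 3.46 CPM in control replicates 1 and 2.

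The other rare cadherins lay at the same limit. CDH3, or P-cadherin, found beside E-cadherin in basal keratinocytes, had 0, 0 and 3 reads with SOX10 and 1, 0 and 1 in the controls. CDH11, a cadherin of mesenchymal cells, had 0, 1 and 0 reads against 0, 0 and 2. Neither CDH1, CDH3 nor CDH11 had a read in more than 3 of the 6 libraries.

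CDH19, named in glial precursors of the neural crest, had 6, 5 and 0 reads in SOX10 replicates 1, 2 and 3 and 1, 3 and 2 in control replicates 1, 2 and 3. The deepest library of all, SOX10 replicate 3, was thus the only library without a read. The pooled level was 1.05 CPM (exact 95% binomial interval 0.526 to 1.88) with SOX10 and 1.55 CPM (0.570 to 3.38) in the controls. CDH19 had too few reads for the test, and the pooled values show no difference beyond counting error.

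Per kb of exon, N-cadherin was the leading transcript of the 6 chosen cadherins in every library. Other cadherins were left out of the sum. CDH2 made up 66.0%, 70.8% and 72.0% of the summed CPM per kb of the 6 cadherins in SOX10 replicates 1, 2 and 3, and 68.5%, 66.5% and 61.0% in control replicates 1, 2 and 3. The means were 69.6 ± 3.17% and 65.4 ± 3.88% (SD, n = 3 each), and the groups overlapped. CDH13 held nearly all of the rest, at 27.7% to 33.6% with SOX10 and 30.9% to 38.3% in the controls. The share of CDH1 was 0% to 0.191%, and that of CDH19 was 0% to 0.986%, with its highest value in control replicate 2. Without scaling by length the mean share of CDH2 was 50.5% and that of CDH13 49.0% with SOX10, against 45.8% and 53.4% in the controls. CDH2 then led only in SOX10 replicates 2 and 3, and CDH13 led in the other 4 libraries. The size of the CDH2 lead thus depends on exon lengths, here from GENCODE release 29, which may differ from the annotation used for counting.

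**Figure D3:**
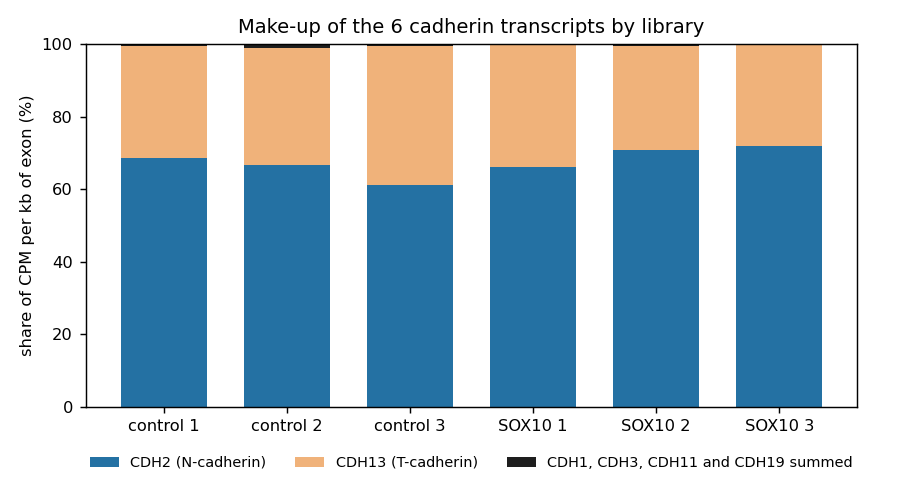
Share of each cadherin in the summed CPM per kb of exon of the 6 cadherins, in percent, with 1 bar per library. CDH2 takes 61.0% to 72.0% in all 6 libraries, CDH13 nearly all of the rest, and the other 4 cadherins together a sliver at the top.

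CTNNA1, the alpha-catenin that links the cadherin complex to actin, was the most abundant member. It stood at 589, 587 and 618 CPM with SOX10 and at 588, 521 and 544 CPM in control replicates 1, 2 and 3. The groups overlapped through control replicate 1, which lay between SOX10 replicates 2 and 1. CTNNA1 had a log2 fold change of 0.12 (SE 0.094), an adjusted p by edgeR of 0.929 and a 95% interval of the fold from 0.949 to 1.24. Of its exonic bases in GENCODE release 29, 5.04% lie opposite exons of LRRTM2, which had 6 to 24 reads per library.

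CTNNB1, or beta-catenin, was nearly level. It stood at 248, 228 and 236 CPM with SOX10 and at 233, 240 and 225 CPM in the controls. By edgeR its log2 fold change was 0.033 (SE 0.11) and its adjusted p 0.983, and the fold lay between 0.879 and 1.19 at 95% confidence. The sign of this small difference turned in 3 of 17 other settings. RNA levels say nothing of the amount or place of the beta-catenin protein, which is set largely by its breakdown.

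JUP, or plakoglobin, which takes the place of beta-catenin in desmosomes and in some adherens junctions, had 0, 5 and 4 reads with SOX10 and 0, 0 and 2 in the controls. It was too rare for the test. The pooled level was 0.862 CPM (exact 95% binomial interval 0.394 to 1.64) with SOX10 and 0.518 CPM (0.0627 to 1.87) in the controls. Beta-catenin was thus the only one of this pair with more than a few reads in any library.

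CTNND1, or p120-catenin, had 88 reads in all, against 3386 for CTNNB1. It stood at 6.90, 7.90 and 5.52 CPM in the SOX10 libraries and at 5.48, 8.0 and 3.38 CPM in the controls, from 26, 20, 23, 5, 7 and 7 reads. Its log2 fold change was 0.38 (SE 0.47), its adjusted p by edgeR 0.940, and the interval of the fold, 0.665 to 2.54, leaves room for changes in either direction. Without control replicate 3 the log2 fold change was -0.0028. The count table also has a row for TMX2-CTNND1, a read-through transcript that joins CTNND1 to its neighbour TMX2, and this row held 0 reads in all 6 libraries. Where 2 rows cover the same exon, a read there can be counted as ambiguous and lost from both. Only 3.65% of the exonic bases of CTNND1 are shared with the read-through gene in GENCODE release 29, but the labels do not name the annotation used for counting. The level of CTNND1 relative to other genes is therefore uncertain, and whether reads were lost in this way was not tested.

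Ordered by CPM per kb of exon, averaged over the 6 libraries, CTNNA1 led at 65.1 ± 4.01 (SD, n = 6), followed by CDH2 at 39.9 ± 6.16, CTNNB1 at 19.7 ± 0.698 and CDH13 at 18.7 ± 2.12. The ranges of CTNNB1 and CDH13 overlapped, while CTNNA1 and CDH2 lay apart from each other and from both. CTNND1 at 0.704, CDH19 at 0.220, JUP at 0.132, CDH3 at 0.0614, CDH1 at 0.0473 and CDH11 at 0.0170 followed, and from CDH19 on each range includes 0. The place of CTNND1 in this order is uncertain, since whether its reads were lost as ambiguous was not tested. With the longest transcript as the length, CTNNB1 at 48.1 and CDH2 at 45.5 were close, with overlapping ranges, and CDH13 stood at 26.0. The order of these neighbours thus depends on the length used.

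The 10 members summed to 1277 to 1290 CPM in the SOX10 libraries and to 1123 to 1196 CPM in the controls. This sum was not tested and follows a few abundant members. CDH2 averaged 223 CPM with SOX10 and 171 CPM in the controls, CTNNA1 598 and 551, CDH13 217 and 201, and CTNNB1 237 and 233. Among these only CDH2 had groups that did not overlap. Of the 5 tested members 0 passed the edgeR test over the whole table, and DESeq2 and limma-voom also called 0. Before adjustment 1 was under 0.05 by edgeR, as were 6.23% of all tested genes. All 5 log2 fold changes were above 0, as were 51.3% of those of all tested genes, with a median of 0.12 against 0.0076 over all genes. CDH2 alone, or 1 of 5, had groups that did not overlap, against 11.8% of all tested genes. With 5 genes, 1 is too few to set apart from that share.

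**Figure D4:**
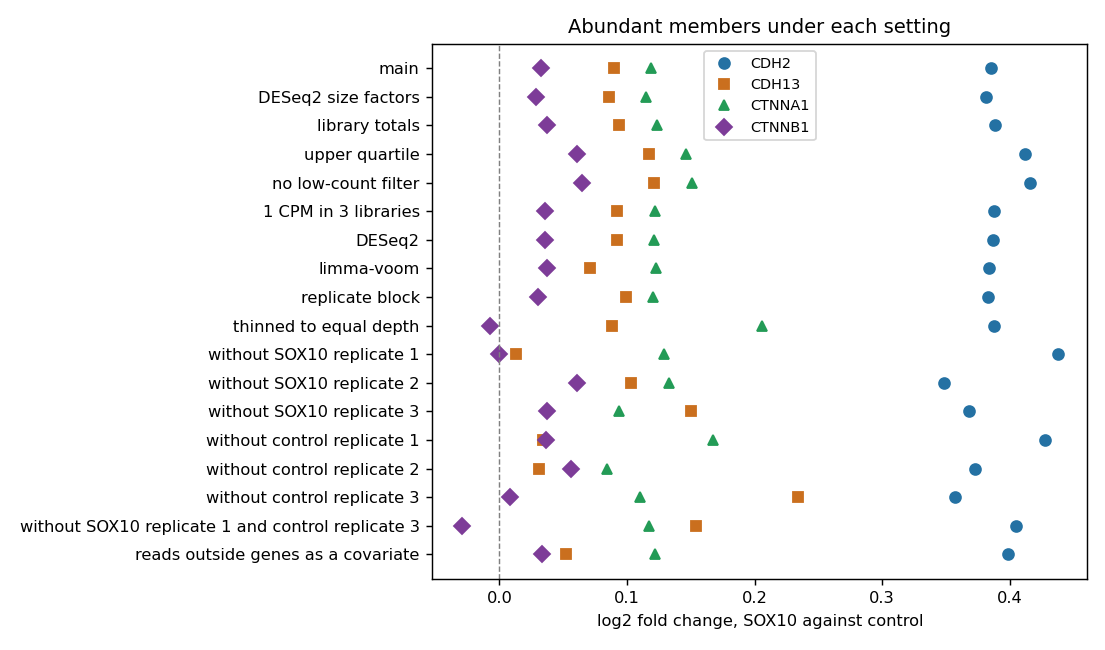
Log2 fold change of the 4 abundant members under the main setting and 17 others, which change the scaling, the filter, the test or the libraries used. The CDH2 points lie between 0.35 and 0.44 throughout, apart from those of the other members, and the CTNNB1 points fall on both sides of 0.

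Among the 20 other cadherins and catenins only 3 had enough reads for the test, and 0 passed it by edgeR, DESeq2 or limma-voom. CDH6, a cadherin of the kidney and of the early neural crest, stood at 7.16, 15.0 and 15.8 CPM with SOX10 and at 8.76, 4.57 and 6.76 CPM in the controls. SOX10 replicate 1 lay below control replicate 1, so the groups overlapped. For CDH6 the log2 fold change was 0.90 (SE 0.41), with an unadjusted p of 0.0376 and an adjusted p of 0.766 by edgeR. CDH24 had 0.24 (SE 0.40). CDH5, the cadherin of endothelium, had 11 reads in all, and the neural alpha-catenin CTNNA2 had 19.

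The nectins and actin linkers, which form the nectin-afadin arm of the junction and its ties to actin, had 14 of 15 genes tested. Each of the 3 tools called 0, and the median log2 fold change was -0.056. By edgeR 0 were higher and 2 lower at an unadjusted p under 0.05, against 2.71% and 3.52% of all tested genes. JUB, or Ajuba, a LIM protein that binds alpha-catenin, stood at 5.31, 6.72 and 3.84 CPM with SOX10 and at 8.76, 10.3 and 9.66 CPM in the controls. Every SOX10 library was below every control, on 16 to 20 reads against 8 to 20. Its log2 fold change was -0.88 (SE 0.41), with an adjusted p of 0.777. MLLT4, or afadin, which ties nectins to actin, had -0.28 (SE 0.13), with an adjusted p of 0.789 and overlapping groups.

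The 16 genes of cadherin turnover, such as the sheddase ADAM10 and the kinase SRC, were all tested and lay between -0.073 and 0.16 on the log2 scale of fold change. None was called by any of the 3 tools and none had an unadjusted p under 0.05. CBLL1, a ubiquitin ligase of E-cadherin, had 0.15 (SE 0.12), and the kinase FYN 0.16 (SE 0.17). This was the narrowest range of the 8 lists plotted here.

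Known repressors of the CDH1 gene differed widely in level. Of 12 genes 8 were tested, with 0 called by each tool, 0 at an unadjusted p under 0.05 and a median of 0.056. ZEB1 stood at 176 ± 19.4 CPM with SOX10 and 179 ± 12.5 CPM in the controls, and SNAI2 at 87.2 ± 10.4 and 80.2 ± 5.75 CPM (SD, n = 3 each). KLF8 and FOXC2 had no read in any library, SNAI3 had 4 reads in all and GSC 35. All 6 were picked once their values were known, and their part in the level of CDH1 was not tested. TWIST1 stood at 10.1, 9.88 and 7.68 CPM with SOX10 and at 15.3, 13.7 and 12.6 CPM in the controls. Its groups did not overlap, and edgeR gave -0.57 (SE 0.33) on the log2 scale with 0.881 as the adjusted p. TCF4 had 0.13 (SE 0.12).

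The beta-catenin destruction complex, which marks beta-catenin for breakdown, had 10 of 11 genes tested, 0 called by each tool and a median of 0.024. FAM123B, also named AMER1, a membrane partner of APC, was the only one with an unadjusted p under 0.05 by edgeR. Over all tested genes 6.23% were under that value. The log2 fold change of FAM123B was -0.74 (SE 0.35), with an adjusted p of 0.777. FBXW11, a ubiquitin ligase subunit for beta-catenin, had -0.11 (SE 0.13).

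Of 19 Wnt factors and targets 14 were tested and 0 called by each tool, with a median log2 fold change of -0.15. By edgeR 2 higher and 2 lower genes had an unadjusted p under 0.05. Over all tested genes these shares were 2.71% as higher and 3.52% as lower. DKK1, a secreted Wnt inhibitor, stood at 21.5, 21.3 and 4.80 CPM with SOX10 and at 49.3, 14.9 and 41.5 CPM in the controls. The groups overlapped through control replicate 2, and the log2 fold change was -1.23 (SE 0.39) with an adjusted p of 0.436. MYC, a target shared by many pathways, had -0.39 (SE 0.14) with an adjusted p by edgeR of 0.526. For MYC every SOX10 library was below every control. AXIN2, a feedback target of beta-catenin named after its values were seen, stood at 14.9, 15.4 and 12.7 CPM with SOX10 and at 8.76, 9.14 and 7.73 CPM in the controls. Its groups did not overlap either, and its log2 fold change was 0.76 (SE 0.33), for which edgeR gave an adjusted p of 0.747. Of the 14 tested genes of this list only 4, with AXIN2 among them, had a log2 fold change above 0. The others were NKD1 at 0.68 (SE 0.47), TCF7 at 0.39 (SE 0.20) and BCL9 at 0.25 (SE 0.12). In NKD1 and TCF7 every SOX10 library was above every control, and in BCL9 the groups overlapped.

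Desmosomes, the other cadherin-based junction, had 5 of 13 genes tested and 0 called or with an unadjusted p under 0.05, with a median of 0.18. DSC2, a desmosomal cadherin, had 0.45 (SE 0.34) and the armadillo protein PKP4 -0.19 (SE 0.11), with adjusted p-values of 0.924 and 0.877 by edgeR. In PKP4 every SOX10 library was below every control. In DSG2, a desmosomal cadherin named after its values were seen, every SOX10 library was above every control. Its log2 fold change was 0.18 (SE 0.14), with an adjusted p by edgeR of 0.929.

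The count of tested genes whose groups did not overlap, in either direction, was 6 of 14 for Wnt factors and targets, 2 of 5 for desmosomes, 1 of 10 for the destruction complex, 1 of 8 for repressors of CDH1, 1 of 14 for nectins and actin linkers, 0 of 16 for cadherin turnover and 0 of 3 for the other cadherins and catenins. Over the whole table the share was 11.8%.

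**Figure D5:**
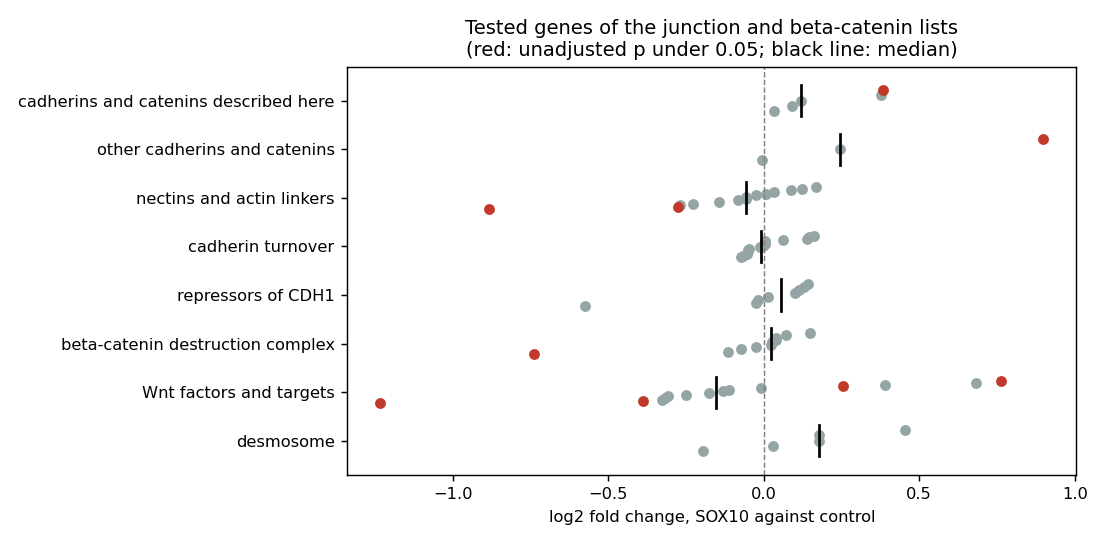
Log2 fold changes of all tested genes in the 8 lists, with 1 point per gene, red where the unadjusted p by edgeR was under 0.05 and a black line at the list's median. None passed after adjustment over all genes, and the genes of cadherin turnover lie closest together, between -0.073 and 0.16.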

How the data were processed

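The authors deposited raw read counts for each gene symbol as whole numbers, without normalization, in 1 column per library. TopHat 1.4.0, HTSeq, DESeq and the build hg19 stand in the submitters' processing notes, and per the labels' protocols libraries were made from 125 ng of total RNA. No source used here names the annotation, strand setting or overlap mode. The 5 class rows that name no gene stayed out of totals and tests: reads outside genes made up 39.4% to 46.9% of records, multiply placed reads 17.7% to 19.1% and ambiguous reads 0.435% to 0.551%.

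Columns were matched to samples by title and groups taken from the treatment label. Replicates of a group differed beyond sampling noise in every pairwise comparison (chi-square per degree of freedom 2.11 to 7.03). The test was edgeR 4.0.16 in R 4.3.3, quasi-likelihood, TMM, filterByExpr (minimum count 10, minimum total 15), no covariate, Benjamini-Hochberg over 10678 genes with a threshold of 0.05. Fold changes use a prior count of 0.125. On counts simulated for this comparison over 10443 genes, 60 of 100 genes changed 2-fold and 95 of 100 changed 4-fold were recovered, with 7 false calls. More genes were changed there than the 12 called in the data, which makes the adjusted threshold easier to pass. No change as small as that of CDH2 was simulated, so recovery at that size is unknown. Alternatives used DESeq2 1.42.0 and limma 3.58.1. Exon lengths are from GENCODE release 29, whose build differs from hg19. Named are all 10 members, SOX10, and from each list the 2 genes of lowest p among those tested. Outside this rule, and chosen after their values were seen, are CDH5, CTNNA2, ADAM10, SRC, ZEB1, SNAI2, SNAI3, KLF8, GSC, FOXC2, AXIN2, NKD1, TCF7, BCL9, DSG2, LRRTM2, TMX2 and single cell type markers. Members and lists were chosen with earlier results of these data known.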

Additional observations from a re-analysis of the deposited data

How the results depend on the processing

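None of the 5 tested members was called under any of the 17 alternatives. The number of called genes over the whole table, 12, became 48 with no low-count filter, 43 with reads outside genes as a covariate (chosen after seeing the data) and 7 without SOX10 replicate 1 and control replicate 3 together, and ran from 6 to 18 without single libraries, lowest without control replicate 1. A block for the replicate number gave 7, and for CDH2 an adjusted p by edgeR of 0.827. Same-numbered libraries did not deviate together, with correlations of -0.027, -0.032 and -0.13, so the numbers were not taken as pairs. CDH2, CDH13 and CTNNA1 kept their direction in every alternative. CTNNB1 turned to -0.0074 after thinning to equal depth, to -0.029 without SOX10 replicate 1 and control replicate 3, and ran from -0.00029 to 0.061 without single libraries. CTNND1 turned to -0.035 without that pair and ran from -0.0028 to 0.69 without single libraries; after thinning it had too few reads for the test. The cause of these changes was not tested. With the longest transcript as length the mean CDH2 share of the cadherins was 65.4% with SOX10 and 60.9% in the controls. Depth limits CDH1, CDH3, CDH11, CDH19 and JUP most, since a count of 0 allows up to 3.46 CPM in the shallowest library.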

Other observations

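The count table holds 110 rows whose names join 2 other rows, as TMX2-CTNND1 does. Of these, 91, or 82.7%, held 0 reads in all 6 libraries, against 12.1% of all 23368 gene rows. TMX2, the other gene joined in that row, had 170, 84 and 192 reads with SOX10 and 18, 22 and 86 without. These reads are not scaled for depth, and every SOX10 library was deeper than every control, so they do not compare the groups. How reads in exons shared by such rows were assigned was not tested.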
